A study of Mus musculus with 6 samples.

Results

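The genes described here encode the nuclear part of the mitochondrial respiratory chain and of the ATP synthase. They were chosen by symbol as the protein-coding mouse genes whose names begin with Ndufa, Ndufb, Ndufc, Ndufs, Ndufv, Uqc, Atp5 or Cox followed by 4 to 8, together with Sdha, Sdhb, Sdhc and Sdhd, and without Ndufa4, Ndufa4l2, Cox4i1 and Cox4i2. This rule took 92 of the 50686 gene identifiers in the count files, and 89 of them had enough reads for a test among 16729 tested genes. By role, 7 members encode core subunits of complex I and 29 its accessory subunits. A further 8 are complex I assembly factors of the Ndufaf family, 4 encode complex II, 8 encode subunits of complex III, 3 are complex III assembly factors of the Uqcc family, 15 encode subunits of complex IV and 16 subunits of the ATP synthase. The remaining 2, Cox7a2l and Atp5s, have another role.

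RNA sequencing was performed on embryoid bodies grown from mouse iPSCs (induced pluripotent stem cells), which had been reprogrammed from gingival fibroblasts, kept on SNL feeder cells and freed of them by selective trypsin treatment. All embryoid bodies received all-trans retinoic acid and were placed on gelatin-coated plates. For 24 h in serum-free medium, 3 samples were loaded with intermittent compressive force (ICF) of 1.5 g per square centimetre at 0.23 Hz and 3 samples were left unloaded as the control. The labels number the samples of each group as donors 1 to 3, here called replicates 1 to 3, and the methods mention independent experiments but no donors, animal age or sex. The libraries held 28711166 to 34194413 reads on genes. ICF replicate 3 stood apart, as multiples of 4 made up 89.0% of its nonzero counts against 20.3% to 21.5% elsewhere, and the share of counted reads outside genes was 9.46% and 9.11% in replicate 3 of control and ICF against 6.26% to 6.81% in the others. In these bulk samples, fewer cells of a type and less RNA per cell cannot be told apart. The p-values weigh a difference against the spread between the samples of a group. In fits with the replicate number as a block, that spread is taken after differences between replicate numbers are removed.

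The respiratory chain carries electrons from NADH, through complex I, or from succinate, through complex II, to ubiquinone, then through complex III and cytochrome c to oxygen at complex IV. Complexes I, III and IV move protons across the inner mitochondrial membrane, and the ATP synthase, also called complex V, uses the returning protons to make ATP. Apart from complex II, each complex also has subunits encoded by mitochondrial DNA, and dedicated assembly factors build the parts together. Pluripotent cells are known for a strong use of glycolysis, and use respiration increasingly as they differentiate.

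Most of the nuclear genes of the chain had nearly the same mRNA level with and without ICF. Of the 89 tested members, 77 (86.5%) had a log2 fold change within 0.25 of 0, against 65.1% of all tested genes. This comparison was made without matching the genes by level. In the control, 86 of the 89 members were above the median level per exon length of all tested genes. The members' fold changes ran from -0.54 to 0.50 on the log2 scale, with a median of -0.03, and all tested genes had a median of 0.003. Past an adjusted p of 0.05 in the edgeR quasi-likelihood test, 4 members were higher and 1 was lower with ICF, or 5.62% of the members. The same test called 7.85% of all tested genes, 3.47% as higher and 4.38% as lower. DESeq2 called 5 members higher and 3 lower, against 5.64% and 6.63% of all tested genes. The members called higher were Uqcc3, Ndufaf4, Ndufaf2 and Ndufab1, and the member called lower was Ndufv3, so 3 of the 4 members that rose were assembly factors.

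The precision behind this count can be read from the intervals. The 95% interval of a member's log2 fold change reached a median of 0.18 to either side of its estimate. For 79 members (88.8%) the whole interval lay within 0.5 of 0, against 52.7% of all tested genes. This comparison too was made without matching the genes by level, so it does not show that the members were steadier than genes of a similar level. The 10 members whose interval went further were Ndufs7, Ndufa7, Ndufv3, Ndufaf4, Ndufaf6, Uqcc3, Cox6b2, Cox7a1, Cox7b2 and Atp5s, which are named for this property after their values were seen.

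**Figure D1:**
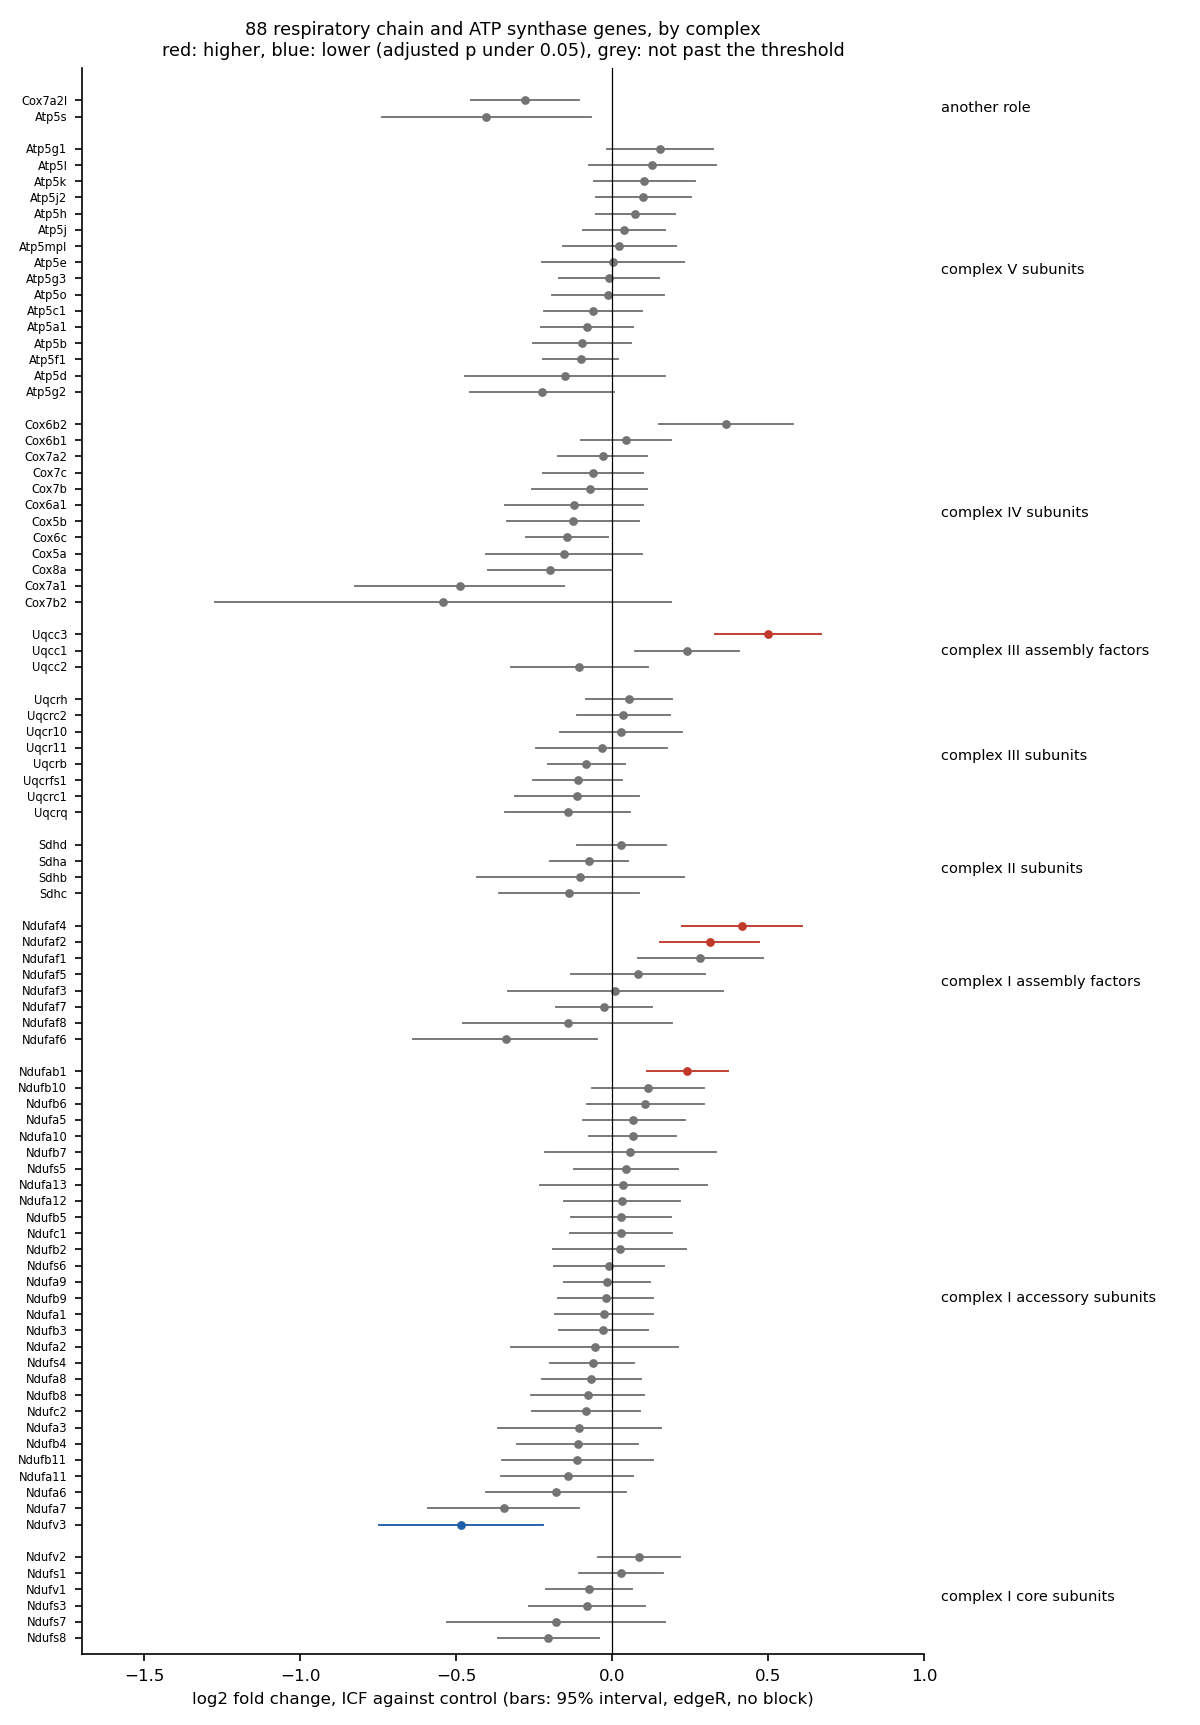
Log2 fold change with ICF against control (horizontal axis) for 88 of the 89 tested members, grouped by complex, with points for the edgeR estimate and bars for its 95% interval. Most points lie within 0.25 of 0, the 4 red members (Uqcc3, Ndufaf4, Ndufaf2, Ndufab1) lie to the right and the blue member, Ndufv3, lies to the left.

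Deviations from the group means correlated across genes at r = 0.376 between the control and ICF samples numbered 3. For numbers 1 and 2 the same-numbered values were 0.15 and 0.197. Control replicate 1 with ICF replicate 2 gave 0.263, and control replicate 2 with ICF replicate 1 gave 0.174. A pairing within numbers 1 and 2 is therefore not shown by the counts. As the labels give both groups the same donor numbers, the test was also made with the replicate number as a block. This fit called 8 members higher and 15 lower (25.8% of the members), against 14.6% and 15.3% of all tested genes (29.9% in all). All 5 members named above were among these calls with the same direction. With the block, 82 members (92.1%, against 60.6% of all tested genes, again not matched by level) had an interval within 0.5 of 0. The members' intervals then reached a median of 0.11 to either side. The calls added by the block are given by complex in the following paragraphs.

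The direction of these small differences depended on how the libraries were scaled. The members had short transcripts, with a median of 1718 exon bases against 3887 for all tested genes, and a median GC content of 50.0% against 49.8%. When offsets for GC content and exon length were fitted in each library, 11 members were called higher and 1 lower, against 7.63% and 5.83% of all tested genes. With the offsets and the block together, 22 members were called higher and 5 lower (30.3%), against 17.4% and 13.5% of all tested genes, in place of 8 and 15. The members' median then moved from -0.03 to 0.06 and that of all genes to 0.03. Of the 8 members called higher with the block alone, 7 were also higher with the offsets, and of the 15 called lower, 4 were also lower. The 5 members called without the block kept their direction and their call with the offsets. A direction for the structural subunits as a whole is therefore not given.

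**Figure D2:**
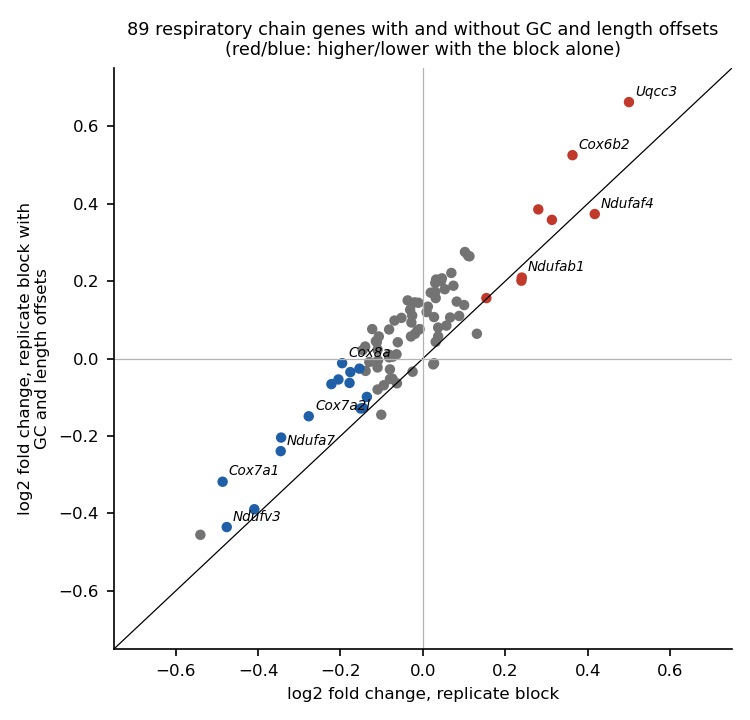
Log2 fold change of the 89 tested members in the fit with the replicate block (horizontal axis) against the fit with the block and offsets for GC content and exon length (vertical axis), with the line of equal values. Red and blue points are the 8 members called higher and the 15 called lower with the block alone, and most points lie above the line.

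Uqcc3, an assembly factor that binds newly made cytochrome b of complex III, showed the largest rise of all members. Its level was 18.3, 18.3 and 18.5 CPM (counts scaled to the normalized library size) in control replicates 1, 2 and 3, and 24.8, 26.8 and 26.4 CPM with ICF. All ICF values were above all control values, and the control values were almost equal. Control libraries averaged 18.4 CPM ± 0.117 (SD, n = 3) and ICF libraries 26.0 CPM ± 1.04 (SD, n = 3). The log2 fold change was 0.50, its standard error 0.08 (edgeR, adjusted p = 0.00631). The gene (ENSMUSG00000071654) lies on the minus strand of chromosome 19 at 8880014 to 8880923 in GRCm38.

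Ndufaf4, an assembly factor for the arm of complex I that binds ubiquinone, was measured at 30.9, 33.1 and 36.5 CPM in the control and at 41.7, 45.3 and 47.1 CPM with ICF. The groups did not overlap, and replicate 3 was the highest in both. The log2 fold change was 0.42 (standard error 0.09, edgeR, adjusted p = 0.0222). The gene (ENSMUSG00000028261) lies on the plus strand of chromosome 4 at 24898083 to 24905001.

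Ndufaf2, a paralogue of the subunit Ndufa12 that acts late in complex I assembly, stood at 26.7, 28.0 and 28.5 CPM in the control and at 33.3, 35.4 and 34.7 CPM with ICF. Every ICF value was above every control value, and the log2 fold change was 0.31 (standard error 0.07, edgeR, adjusted p = 0.0313). The count of Ndufaf2 is uncertain, because 80.7% of the 75-base stretches of its transcript also occur in other genes, mainly B230220B15Rik, and 65.6% of its exon bases overlap another gene.

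Ndufab1, the mitochondrial acyl carrier protein, which is a subunit of complex I and also carries acyl chains in mitochondrial fatty acid synthesis, was at 72.3, 73.1 and 71.8 CPM in the control. With ICF it was at 84.0, 83.6 and 89.0 CPM, above the control in all 3 libraries. The log2 fold change was 0.24 (standard error 0.06, edgeR, adjusted p = 0.0397), and 10.9% of its 75-base stretches are shared with other genes.

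Ndufv3, an accessory subunit at the NADH-binding end of complex I, was the member that fell. Its levels were 101.4, 96.8 and 73.3 CPM in the control and 63.9, 68.6 and 61.4 CPM with ICF. The groups did not overlap, although control replicate 3 was well below the other controls. Control libraries averaged 90.5 CPM ± 15.1 (SD, n = 3) and ICF libraries 64.6 CPM ± 3.63 (SD, n = 3), and the log2 fold change was -0.49 (standard error 0.12, edgeR, adjusted p = 0.0391, and 1.93e-07 with the block). The gene (ENSMUSG00000024038) lies on the plus strand of chromosome 17 at 31520115 to 31531331, and no 75-base stretch of it is shared with another gene.

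These 5 calls differed in how far they rested on each library. Uqcc3 remained past the threshold with each library left out except control replicate 2 (adjusted p = 0.0506, edgeR). Ndufaf4 and Ndufaf2 remained so only without replicate 3 of either group, and were at adjusted p = 0.108 and 0.148 without control replicate 1, 0.115 and 0.132 without control replicate 2, 0.0501 and 0.0871 without ICF replicate 1, and 0.0705 and 0.0981 without ICF replicate 2. Ndufv3 was past the threshold only without control replicate 3, with 0.158, 0.169, 0.124, 0.0751 and 0.063 without control replicates 1 and 2 and ICF replicates 1, 2 and 3. Ndufab1 was past it in none, at 0.152, 0.16 and 0.0578 without each control and 0.116, 0.0834 and 0.0513 without each ICF library. The log2 fold changes themselves stayed at 0.48 to 0.54 for Uqcc3, 0.36 to 0.48 for Ndufaf4, 0.29 to 0.34 for Ndufaf2, 0.22 to 0.26 for Ndufab1 and -0.62 to -0.40 for Ndufv3.

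**Figure D3:**
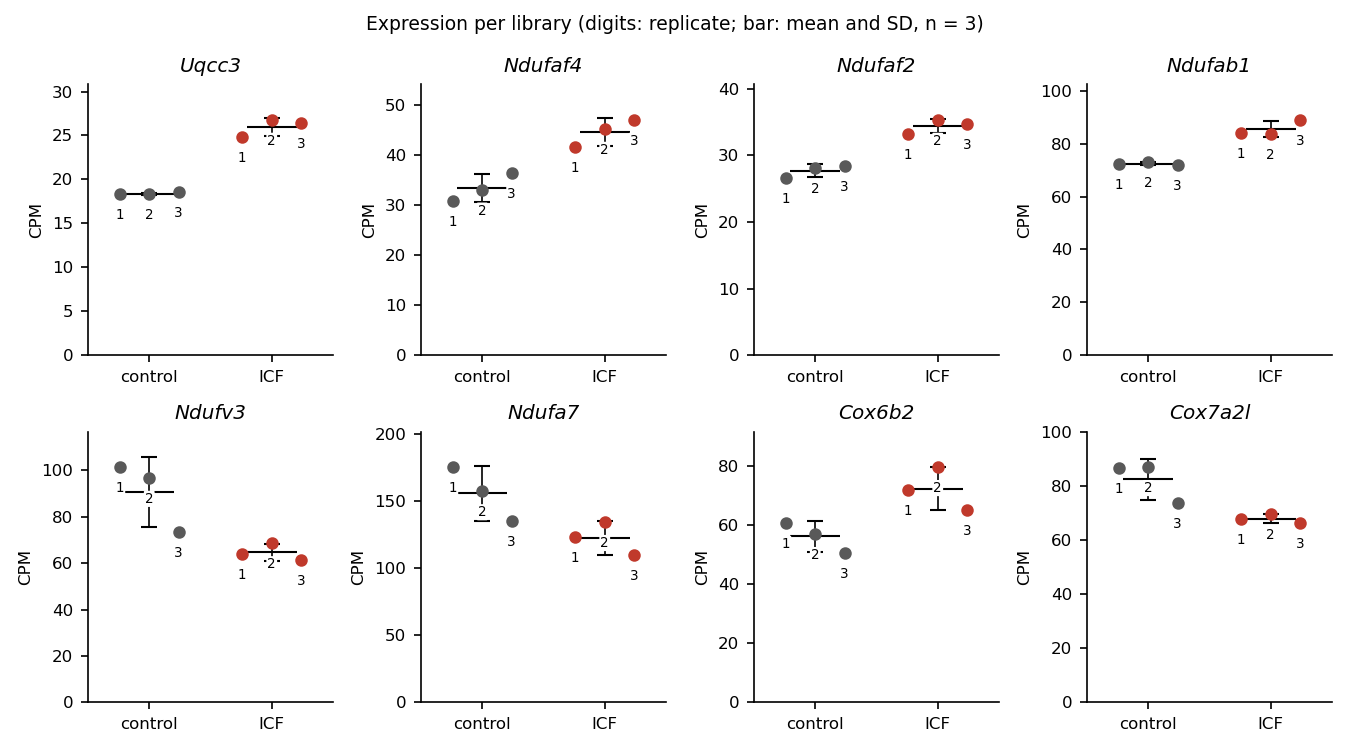
Level in CPM (vertical axis, from 0) of 8 members in each control and ICF library, with the replicate number beside each point and the mean and SD (n = 3) as a bar. All 8 are among the 20.2% of members whose groups do not overlap (31.4% of all tested genes), so separation in each panel follows from the choice of genes. The ICF libraries lie above the control libraries for Uqcc3, Ndufaf4, Ndufaf2, Ndufab1 and Cox6b2 and below for Ndufv3, Ndufa7 and Cox7a2l. Cox6b2, Ndufa7 and Cox7a2l were not called without the block.

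The promoter windows of the 2 assembly factors with the largest rise and of the member that fell are shown so that the letters before their starts can be compared. Each is the 250 bases upstream of the RefSeq start in GRCm38.p6, 5′ to 3′ on the gene's strand, with matches to a searched motif in capitals. The Uqcc3 window is chr19:8880934-8881183 on the minus strand, the Ndufaf4 window chr4:24897833-24898082 on the plus strand and the Ndufv3 window chr17:31519865-31520114 on the plus strand.
Uqcc3: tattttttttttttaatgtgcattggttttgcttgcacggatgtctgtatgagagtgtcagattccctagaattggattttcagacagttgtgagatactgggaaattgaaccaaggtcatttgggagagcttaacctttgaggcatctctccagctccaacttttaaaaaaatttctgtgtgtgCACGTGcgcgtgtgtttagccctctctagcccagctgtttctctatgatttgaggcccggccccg
Ndufaf4: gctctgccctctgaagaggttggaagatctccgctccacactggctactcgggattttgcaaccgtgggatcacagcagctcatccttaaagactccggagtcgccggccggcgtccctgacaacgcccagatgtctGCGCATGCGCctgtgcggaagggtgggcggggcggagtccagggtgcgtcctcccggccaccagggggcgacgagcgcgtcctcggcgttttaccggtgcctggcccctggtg
Ndufv3: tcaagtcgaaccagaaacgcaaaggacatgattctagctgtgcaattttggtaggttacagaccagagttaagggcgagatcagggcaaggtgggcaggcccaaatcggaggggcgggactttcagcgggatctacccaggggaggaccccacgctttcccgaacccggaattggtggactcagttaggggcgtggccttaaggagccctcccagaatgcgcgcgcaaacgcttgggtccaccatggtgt
The searched letters, on both strands, were GCATGCGC for nuclear respiratory factor 1, CCGGAAG for ETS factors such as GABP, AAGATGGCG for YY1 and ACGTG for hypoxia-inducible factors. In Ndufaf4 the capitals are a palindrome that holds the first motif on either strand, 113 and 111 bases before the start. In Uqcc3 the capitals are a palindrome that holds the last motif on either strand, 65 and 64 bases before the start, and the Ndufv3 window holds none of the 4. No match overlapped that of another motif in these windows.

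Over the 77 members with a window, the first motif was in 9 (11.7%), against 4.28% of the windows of 11808 tested genes. The ETS motif was in 13 members (16.9%, against 13.1%), the YY1 motif in 0 (against 1.08%) and the hypoxia motif in 16 (20.8%, against 21.5%). The windows of Ndufab1 and Ndufaf2 held none of the 4 motifs. The YY1 motif was in only 127 of the 11808 windows, so 0 matches among 77 do not show that the members lack it. A match describes letters and not a bound site, and letters after the start were not searched.

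Among the core subunits of complex I, which hold the flavin, the iron-sulphur clusters and the ubiquinone site, none of 7 passed the test without the block. Their log2 fold changes ran from -0.20 to 0.09 with a median of -0.07. Ndufs8, an iron-sulphur subunit next to the ubiquinone site, was at 61.7, 55.9 and 56.6 CPM in the control and at 49.4, 53.6 and 48.2 CPM with ICF. Its groups did not overlap (log2 fold change -0.20, edgeR adjusted p = 0.116), and it was called lower with the block (adjusted p = 0.0107). Ndufs7, its iron-sulphur neighbour, was also called lower with the block (-0.18, adjusted p = 0.0352), with control values of 68.0, 60.2 and 46.3 CPM that overlapped the ICF values of 52.4, 59.2 and 42.5 CPM. Neither call held with the offsets for GC content and length (adjusted p = 0.482 and 0.692, with the block).

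Other core subunits stayed close to 0. Ndufv1, which binds NADH and the flavin, had a log2 fold change of -0.07 (95% interval -0.21 to 0.06), and its partner Ndufv2 had 0.09 (-0.04 to 0.22). The iron-sulphur subunit Ndufs1 had 0.03 (-0.11 to 0.16). Ndufs3, in the arm that leads electrons to ubiquinone, had -0.08 (-0.27 to 0.11). None of these 4 was called with the block either.

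The 29 accessory subunits of complex I, which surround the core, had a median log2 fold change of -0.02, with 1 called higher (Ndufab1) and 1 lower (Ndufv3). Of all tested genes, 3.47% were called higher and 4.38% lower. With the block, Ndufa7 and Ndufa6 were added on the lower side. They are named after their values were seen. Ndufa7, in the arm that reaches into the matrix, was at 175.2, 157.2 and 134.7 CPM in the control and 123.1, 134.3 and 109.6 CPM with ICF. The ICF values were all below the control values, by a narrow margin between control replicate 3 and ICF replicate 2. The log2 fold change was -0.35 (edgeR, adjusted p = 0.0808, and 6.66e-06 with the block), and the call held with the block and the offsets (adjusted p = 0.00374). Ndufa6, which docks the acyl carrier protein in the matrix arm, had -0.18 (adjusted p = 0.297, and 0.0137 with the block) with overlapping groups, and its call was lost with the offsets (adjusted p = 0.378). With the block and the offsets, 7 of the 29 accessory subunits were called higher and 2 lower (Ndufv3 and Ndufa7), in place of 1 and 3. In that fit 17.4% of all tested genes were higher and 13.5% lower, against 14.6% and 15.3% with the block alone. Besides Ndufab1, those called higher included Ndufb10 (log2 fold change 0.26, adjusted p = 0.00115), Ndufa13 (0.20, 0.00527) and Ndufb6 (0.265, 0.00691), which are named after their values were seen and were not called with the block alone.

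Of the 8 Ndufaf assembly factors of complex I, 2 were called higher and none lower, against 3.47% and 4.38% of all tested genes. Their median log2 fold change was 0.05. With the block, where 14.6% and 15.3% of all tested genes were called, Ndufaf1 was added as higher and Ndufaf6 as lower. Ndufaf1, which builds the membrane arm and is named after its values were seen, was at 24.9, 27.0 and 24.9 CPM in the control and 29.7, 29.2 and 34.5 CPM with ICF. Its groups did not overlap (log2 fold change 0.28, edgeR adjusted p = 0.0853, and 0.004 with the block). Ndufaf6, which acts early in complex I assembly, was at 22.3, 20.7 and 17.3 CPM in the control and 17.1, 17.0 and 13.4 CPM with ICF. Its groups were separated by a small gap between control replicate 3 and ICF replicate 1 (log2 fold change -0.34, adjusted p = 0.139, and 0.0013 with the block). With the offsets and the block, Ndufaf1 stayed higher (adjusted p = 0.00156) and Ndufaf6 lower (0.0435). The other 4, Ndufaf3, Ndufaf5, Ndufaf7 and Ndufaf8, had log2 fold changes of 0.01, 0.08, -0.03 and -0.14 and were not called in either fit.

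Complex II oxidizes succinate and is the only complex made of nuclear genes alone. None of its 4 members passed the test without the block. Sdha, the flavoprotein, had a log2 fold change of -0.07 (95% interval -0.20 to 0.06), and Sdhb, the iron-sulphur subunit, had -0.10 (-0.43 to 0.23). The membrane anchors Sdhc and Sdhd had -0.14 (-0.36 to 0.09) and 0.03 (-0.11 to 0.17). Sdhc was called lower with the block (adjusted p = 0.0463) and not with the offsets (0.142), with control values of 153.8, 140.4 and 120.3 CPM and ICF values of 129.7, 133.5 and 113.4 CPM. Its groups overlapped, and replicate 3 was lowest in both. With the block and the offsets, Sdhd was called higher (log2 fold change 0.17, adjusted p = 0.00941) and no complex II gene lower. In that fit 17.4% of all tested genes were higher and 13.5% lower.

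In complex III, which passes electrons from ubiquinol to cytochrome c, the 8 structural subunits and the assembly factors had different counts of calls, and the difference between these groups was not tested. None of the 8 subunits was called with or without the block, and their log2 fold changes ran from -0.14 for Uqcrq to 0.05 for Uqcrh, a hinge protein next to cytochrome c1. Uqcrq, which lies beside cytochrome b, was at 121.3, 101.6 and 99.3 CPM in the control and 95.7, 104.0 and 92.2 CPM with ICF, with 1 ICF value inside the control range. With the block and the offsets, 3 subunits were called higher and 0 lower, against 17.4% and 13.5% of all tested genes. The 3 were Uqcrh (log2 fold change 0.18, adjusted p = 0.00734), Uqcr10 (0.20, 0.0119) and Uqcr11 (0.15, 0.0334), the last being named after its values were seen. Of the 3 Uqcc assembly factors, Uqcc3 was called in both fits and Uqcc1 with the block.

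Uqcc1 and Uqcc2 act together on the translation of cytochrome b. Uqcc1 was at 42.6, 42.5 and 38.5 CPM in the control and 46.4, 48.4 and 51.2 CPM with ICF. The groups did not overlap, with a log2 fold change of 0.24 (edgeR, adjusted p = 0.0806, and 0.00497 with the block). Uqcc2 was at 65.6, 63.6 and 55.3 CPM in the control and 61.2, 60.0 and 50.3 CPM with ICF, with overlapping groups and a log2 fold change of -0.11 (95% interval -0.32 to 0.11). With the offsets, its sign turned to a log2 fold change of 0.06.

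Of all tested genes, 3.47% were higher and 4.38% lower without the block, 14.6% and 15.3% with it, and 17.4% and 13.5% with the block and the offsets. Beside these shares, 3 of 11 assembly factors were called higher and 0 lower without the block, and 5 higher and 1 lower with the block, also with the offsets. Among the 3 is Ndufaf2, whose count is uncertain. Of 38 tested assembly factors outside the members, 1 was higher and 1 lower without the block. With the block 6 were higher and 4 lower, and with the block and the offsets 11 and 2. The 76 tested structural subunits had 1 call in each direction without the block, 3 higher and 12 lower with it, and 17 higher and 3 lower with the block and the offsets.

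Complex IV, cytochrome c oxidase, reduces oxygen, and its 15 members include isoforms for heart and muscle or for testis. None of the 12 tested members passed the test without the block, and their median log2 fold change was -0.12, which became -0.002 with the offsets. Cox6b2, the testis isoform of a subunit on the outer face of the complex, was at 60.9, 57.1 and 50.8 CPM in the control and 72.1, 79.8 and 65.2 CPM with ICF. All ICF values were above the control values, with a log2 fold change of 0.36 (edgeR, adjusted p = 0.051, and 1.14e-05 with the block). It was also called by DESeq2 (adjusted p = 0.00993) and with the block and the offsets (4.05e-06). Its common counterpart Cox6b1 had a log2 fold change of 0.05 (95% interval -0.10 to 0.19), which became 0.21 and a call with the offsets (adjusted p = 0.0378, and 0.0053 with the block and the offsets). Per exon length, the ratio of Cox6b2 to Cox6b1 was 0.249, 0.251 and 0.232 in control libraries and 0.302, 0.326 and 0.285 in ICF libraries. The ratio was above the control in every ICF library.

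Cox7a1, the heart and muscle isoform of Cox7a, was low, at 4.48, 4.06 and 4.87 CPM in the control and 3.02, 3.48 and 3.04 CPM with ICF. Its groups did not overlap (log2 fold change -0.49, edgeR adjusted p = 0.0787, and 0.0181 with the block), and its call was lost with the block and the offsets (adjusted p = 0.114). Its common counterpart Cox7a2 had -0.03 (95% interval -0.17 to 0.11). Cox7b2, a testis isoform, was close to the limit of the test, with a mean of 13.7 counts and a log2 fold change of -0.54 (95% interval -1.27 to 0.19), against -0.07 (-0.26 to 0.11) for Cox7b. The heart and muscle isoforms Cox6a2 and Cox8b and the testis isoform Cox8c had too few reads for the test, with at most 4, 0 and 5 counts in a library.

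The common subunits Cox8a, Cox5a and Cox6c were called lower with the block, Cox5a and Cox6c being named after their values were seen. Cox8a was at 177.1, 154.0 and 143.6 CPM in the control and 139.9, 145.8 and 127.7 CPM with ICF, with a log2 fold change of -0.20 (edgeR, adjusted p = 0.194, and 0.00466 with the block). Its groups overlapped by 1 ICF value, and with the offsets its fold change was -0.01. Cox5a, which lies in the matrix, had -0.16 and Cox6c, a membrane subunit, had -0.15 (adjusted p = 0.0258 and 0.0298 with the block). With the block and the offsets they had -0.13 and -0.13 and were not called (0.0914 and 0.0633). In that fit 2 complex IV genes were higher, Cox6b1 and Cox6b2, and 0 lower, against 17.4% and 13.5% of all tested genes. Cox6a1, in which the 2 ways of scaling gave opposite signs, had a log2 fold change of -0.12, and of 0.08 with the offsets.

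The ATP synthase had no call without the block among 16 members, and its median log2 fold change was -0.003. Its catalytic head is built of the alpha, beta and gamma subunits. Atp5a1 (alpha) had a log2 fold change of -0.08 (95% interval -0.23 to 0.07), Atp5b (beta) had -0.10 (-0.25 to 0.06) and Atp5c1 (gamma) had -0.06 (-0.22 to 0.10). Atp5b was at 2163, 2065 and 1886 CPM in the control and 1936, 1978 and 1805 CPM with ICF. The groups overlapped, since 2 ICF values lay above control replicate 3.

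The membrane ring of the synthase is made of the c subunit, whose mature protein is encoded alike by Atp5g1, Atp5g2 and Atp5g3. With the block, Atp5g1 was called higher and Atp5g2 lower. Atp5g1 was at 78.3, 67.8 and 69.1 CPM in the control and 78.2, 84.2 and 76.8 CPM with ICF, with overlapping groups and a log2 fold change of 0.15 (edgeR, adjusted p = 0.242, and 0.0435 with the block). Atp5g2 was at 71.6, 63.8 and 55.0 CPM in the control and 53.9, 58.6 and 50.4 CPM with ICF, with a log2 fold change of -0.23 (adjusted p = 0.206, and 0.00608 with the block). Neither was called with the block and the offsets, where the log2 fold change of Atp5g1 was 0.16 (adjusted p = 0.0632) and that of Atp5g2 was -0.07 (0.407). Atp5g3, the most abundant of the 3, had -0.01 (95% interval -0.17 to 0.15). Over the 12 tested genes of the isoform groups of complexes IV and V, 0 were called without the block, 2 were higher and 4 lower with it, and 2 were higher and 0 lower with the block and the offsets. Of all tested genes, the shares higher and lower in these 3 fits were 3.47% and 4.38%, 14.6% and 15.3%, and 17.4% and 13.5%. Per exon length, the share of Atp5g1 among the 3 genes was 7.24%, 6.99% and 7.48% without ICF, and 8.07%, 8.25% and 8.41% with it. Exon length, as the union over annotated transcripts, was 4912 bases for Atp5g1, against 1675 for Atp5g2 and 2181 for Atp5g3. Rarely used exons of Atp5g1 would lower its share. The size of this share therefore does not show what part of the c subunit mRNA was Atp5g1. Atp5d, the delta subunit of the central stalk, named after its values were seen, was called lower with the block (-0.15, adjusted p = 0.0297) and not with the offsets (0.72). With the block and the offsets, 17.4% of all tested genes were higher and 13.5% lower. In that fit 4 of the 16 synthase subunits were called higher, Atp5h, Atp5j2, Atp5k and Atp5mpl, at 0.14 to 0.28 on the log2 scale. The 1 called lower was Atp5f1 (-0.15, adjusted p = 0.0262). These 5 are named after their values were seen. The count of Atp5h may be split, since 18.9% of its 75-base stretches occur in other genes.

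The 2 members with another role were both below the control with ICF. Cox7a2l, which ties complex III to complex IV in supercomplexes, was at 86.8, 87.2 and 73.9 CPM in the control and 68.1, 69.9 and 66.3 CPM with ICF. The groups did not overlap (log2 fold change -0.28, edgeR adjusted p = 0.0612, 0.000249 with the block and 0.0583 with the block and the offsets), and DESeq2 called it (adjusted p = 0.0209). Its count may be split, since 13.4% of its 75-base stretches occur in other genes. Atp5s, known as coupling factor B, was at 9.14, 7.76 and 8.11 CPM in the control and 7.31, 6.30 and 5.25 CPM with ICF. Its groups did not overlap (log2 fold change -0.40, adjusted p = 0.128, 0.00819 with the block and 0.0159 with the block and the offsets).

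Over all tested members, the groups did not overlap for 7 that were above the control with ICF and 11 that were below it (20.2%), against 15.6% and 15.7% of all tested genes (31.4% in all). For most members the same libraries were low. The lowest control value was in replicate 3 for 69 of 89 members, the lowest ICF value was in replicate 3 for 64, and the highest control value was in replicate 1 for 72. With ICF, 71 members were lower in pair 1, 35 in pair 2 and 48 in pair 3. The summed level of the members was 12720, 12000 and 11120 CPM in the control and 11540, 12020 and 10950 CPM with ICF, so the groups overlapped. Replicate 3 was also the library of each group with the larger share of reads outside genes, and the part of that difference in these values was not tested.

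**Figure D4:**
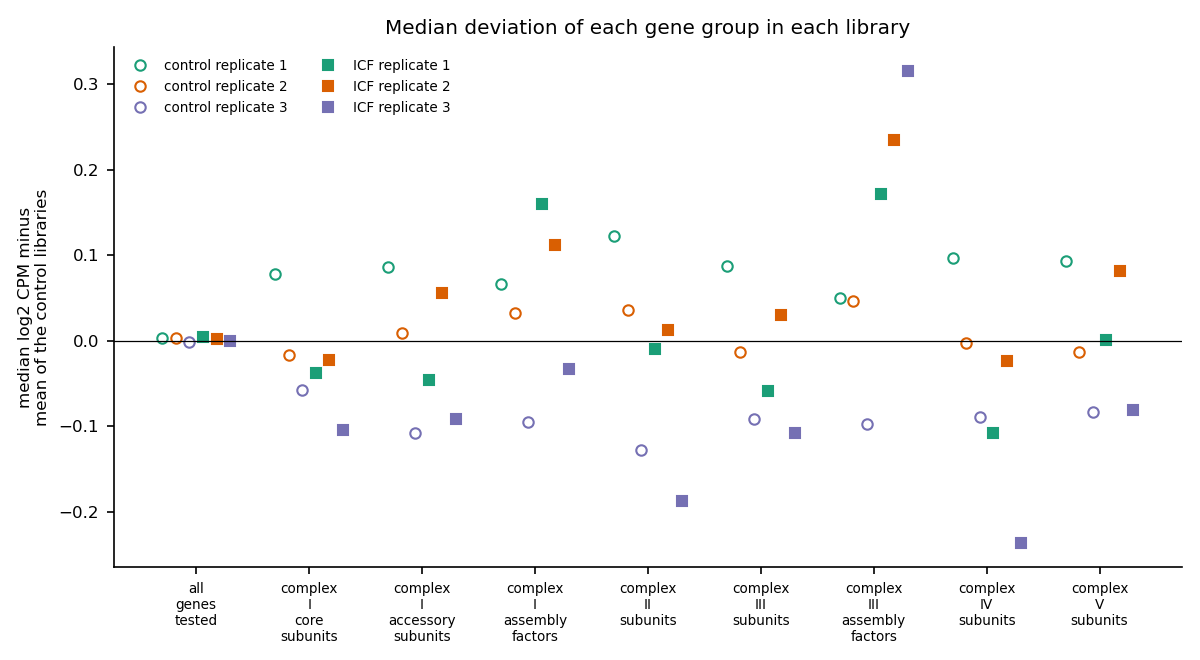
Median over the genes of each group (horizontal axis) of log2 CPM minus the mean of the control libraries (vertical axis), for control replicates (open circles) and ICF replicates (squares) 1 to 3. For all genes every library is near 0, for most complexes replicate 3 is lowest in both treatments, and only the complex III assembly factors have all 3 ICF squares above all control circles. That group holds only 3 genes, with log2 fold changes of 0.50 (Uqcc3), 0.24 (Uqcc1) and -0.105 (Uqcc2), so its median does not describe all of them.

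Levels between genes were compared per exon length, in CPM per kb, in the control. The members had a median of 60.0 CPM per kb, against 4.23 for all tested genes, and 86 of 89 were above the latter. The highest were Atp5b, at 481.0 CPM per kb, Atp5a1, at 382.1, and Cox6a1, a complex IV subunit, at 282.1. The lowest of all was Cox7b2, at 0.971 CPM per kb, followed by Ndufb2, a complex I accessory subunit, at 2.99, Atp5s at 4.09 and the ATP synthase subunit Atp5l at 4.31. The medians were 45.0 CPM per kb for the core and 48.7 for the accessory subunits of complex I, 59.0 for complex II, 91.9 for the complex III subunits, 104.5 for complex IV and 81.1 for the ATP synthase. The medians of the assembly factors were lower, with 11.0 for the Ndufaf and 22.4 for the Uqcc family, although Uqcc2 stood at 73.5 CPM per kb. Exon length is the union over annotated transcripts, which lowers this value for genes with long, rarely used exons. Within complex I the highest level was that of Ndufc2 (110.4 CPM per kb), and within complex III that of Uqcr10 (180.2), whose log2 fold changes were -0.08 and 0.03.

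**Figure D5:**
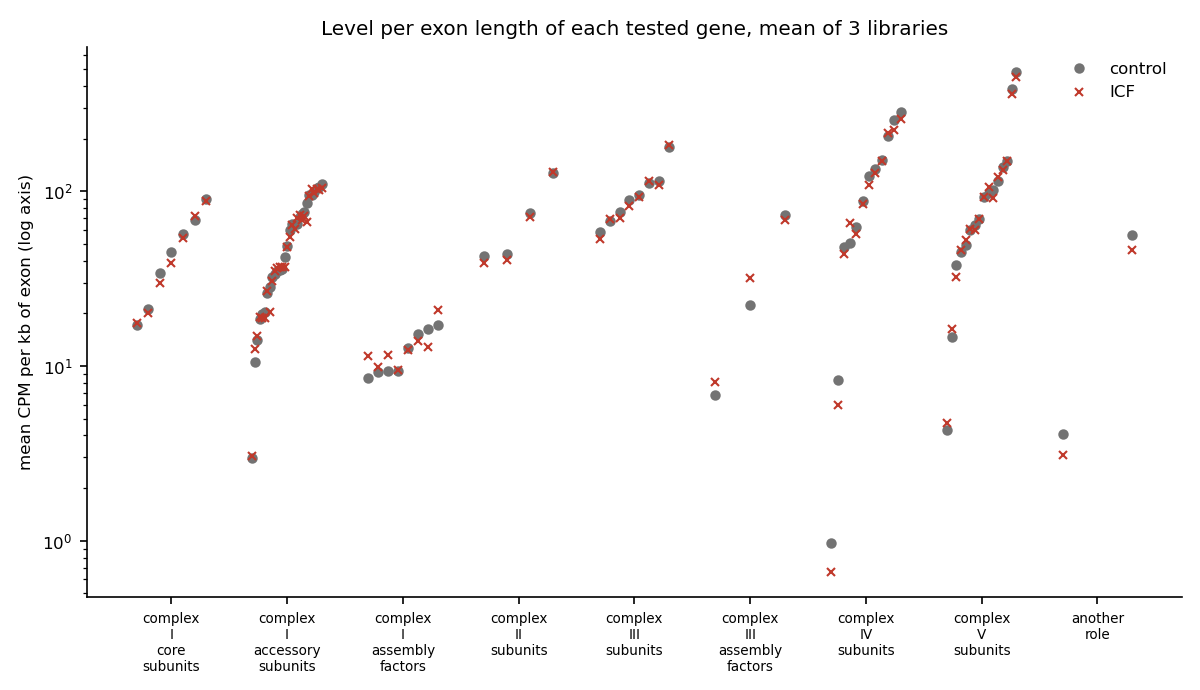
Mean level in CPM per kb of exon (vertical log axis) of each tested member, in order of its control level within each group, for the control (circles) and ICF (crosses), n = 3 each. The symbols nearly coincide for most members, and the assembly factors other than Uqcc2 (73.5 CPM per kb in the control) lie in the lower part of the range.

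The 4 genes that share these names but were left out of the members behaved in 2 ways. Ndufa4, a complex IV subunit, and Cox4i1, the common isoform of Cox4, had log2 fold changes of -0.03 (95% interval -0.17 to 0.11) and -0.13 (-0.37 to 0.11). Their counterparts Ndufa4l2 and Cox4i2 are known as hypoxia-induced genes. Ndufa4l2 was at 21.9, 19.4 and 8.45 CPM in the control and at 0.806, 0.454 and 1.11 CPM with ICF, without overlap, and its log2 fold change of -4.41 (edgeR, adjusted p = 0.000892) was far larger in size than that of any member. Cox4i2 was at 1.44, 1.12 and 0.591 CPM in the control and 0.230, 0.272 and 0 CPM with ICF, with a log2 fold change of -2.57 (adjusted p = 0.0435). ICF replicate 3 held 0 counts of Cox4i2, and the call was lost without 4 of the 6 libraries, with adjusted p = 0.182 and 0.16 without control replicates 1 and 2 and 0.114 and 0.0803 without ICF replicates 1 and 2.

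Other genes of the pathway were counted in lists, beside the 3.47% and 4.38% of all tested genes called higher and lower without the block and the 14.6% and 15.3% with it. Of the 11 genes of cytochrome c and other routes of electron entry, 0 were higher and 1 was lower, and with the block 2 were higher and 2 lower. The gene that fell was Cyct, the testis form of cytochrome c, at 47.2, 44.7 and 45.5 CPM in the control and 33.1, 32.0 and 35.6 CPM with ICF (log2 fold change -0.45, edgeR adjusted p = 0.00771), without overlap. Of the 13 genes of ubiquinone synthesis, 1 was higher and 0 lower (2 and 3 with the block), and the gene that rose was Coq4, with a log2 fold change of 0.40 (adjusted p = 0.0453). Of 38 tested assembly factors outside the members, 1 was higher and 1 lower (6 and 4 with the block). Cox19, which serves copper delivery to complex IV, had 0.31 (adjusted p = 0.0399) and Cox18, which inserts the Cox2 subunit into the membrane, had -0.34 (adjusted p = 0.0366). None of the 15 regulators of mitochondrial biogenesis and none of the 7 nucleotide, phosphate and outer membrane carriers was called, and with the block 1 regulator was higher and 1 carrier lower.

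Of the 13 subunits encoded by mitochondrial DNA, 10 were tested, 2 were higher and 1 was lower (5 and 1 with the block). The shares of all tested genes were 3.47% and 4.38% (14.6% and 15.3% with the block). mt-Cytb, the cytochrome b that Uqcc3 binds, was at 2780, 2729 and 3357 CPM in the control and 4400, 4225 and 5006 CPM with ICF, without overlap (log2 fold change 0.62, edgeR adjusted p = 0.00762). mt-Nd5, a proton-pumping subunit of complex I, had 0.345 (adjusted p = 0.0114). mt-Nd6, the mitochondrial subunit encoded on the opposite strand, was at 141.3, 130.8 and 98.6 CPM in the control and 63.8, 63.2 and 45.7 CPM with ICF, without overlap (log2 fold change -1.10, adjusted p = 0.00538). The strand setting of the counting is not given in the sources used here, so it is not known whether reads from the opposite strand were counted for mt-Nd6. mt-Co1 had a log2 fold change of 0.004. A mean of only 0.333 to 25.0 counts was left for mt-Nd4l, mt-Atp8, mt-Nd3, mt-Atp6 and mt-Co3 as against 190554.5 for mt-Co1, and the counting leaves out reads that align to several places.

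Markers of the cell types that the samples could hold were measured beside these results. Of all tested genes, 3.47% were called higher and 4.38% lower without the block, and 14.6% and 15.3% with it. Without replicate 3 of both groups, 2462 of the 16729 tested genes were higher and 2613 lower. DESeq2 called 5.64% higher and 6.63% lower. Pou5f1, which defines the labelled iPSCs, was at a mean of 840.7 CPM in the control and 816.9 CPM with ICF. Of 10 pluripotency markers, 9 had a fold change below 0, as had 49.6% of all tested genes. None was higher and 1, Tdgf1 (log2 fold change -0.81), was lower without the block, 4 were lower with the block (Tdgf1, Klf4, Dppa5a and Utf1) and 6 without replicate 3 of both groups. They had a summed level of 3846 to 4656 CPM in the control and 3479 to 3928 CPM with ICF. Of 8 tested fibroblast markers, which the feeder cells would also carry, 2 were higher, Col1a1 (0.75) and Col3a1 (0.73), and 0 were lower (3 and 0 with the block), with sums of 42.8 to 70.8 CPM in the control and 71.5 to 95.9 CPM with ICF and with Lum and Fap at or near 0 in all libraries. Of 7 immature mesenchymal and 7 neuroectoderm markers none was called without the block. With the block, Twist1 (0.40) was higher and Tcf15 (-0.24) lower among the former, and Nes (0.48) and Map2 (0.35) were higher and Tubb3 (-0.23) lower among the latter, and DESeq2 also called Nes (adjusted p = 0.0482). Of 7 endoderm markers 6 had a fold change above 0, with a median of 0.19. None was called higher and 1 was lower (Sox17, -0.34) without the block, and Gata6 (0.19) and Dab2 (0.26) were higher with it. The endoderm sums were 901.8, 909.3 and 1122 CPM in the control and 1036, 1033 and 1227 CPM with ICF, higher in every pair with overlapping groups. Of 7 tested heart and muscle markers 1 was lower (Myl7, -1.37), also with the block, with sums of only 13.3 to 15.9 CPM. Of 6 tested genes that respond to retinoic acid 2 were lower, Cyp26a1 (-0.70) and Stra8 (-0.98), and 0 were higher (2 and 1 with the block). The markers named for the block were chosen after their values were seen. The part of any of these cell types in the members' values was not tested.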

How the data were processed

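Read checks (FastQC), trimming (Trimmomatic), alignment (HISAT2) and gene counting (HTSeq) were done by the authors, whose deposited files hold unnormalized whole-number counts. The libraries were strand-specific, single-end and of 75 cycles. The processing notes name bcl2fastq 2.19 and the builds GRCm38 and hg38, and the gene identifiers are those of mouse. Other versions and the strand setting are not given in the sources used here. The methods name a Ribospin II kit and the labels an RNeasy kit. Reads that align to several places, which HTSeq sets aside, were 29.5% to 31.3% of all reads, and all tally lines together 38.1% to 40.3%. These stayed out of library sizes.

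The GENCODE M21 annotation of GRCm38 named 50462 of the 50686 identifiers and gave coordinates, GC content and exon length. Of 93 identifiers taken by the rule, 1 (a further entry of Atp5o) was not in the count files and was not analysed here. Counts were fitted with edgeR 4.0.16 in R 4.3.3 (TMM, filterByExpr by group, quasi-likelihood F test, Benjamini-Hochberg over all 16729 genes, threshold 0.05). CPM are TMM-normalized. Standard errors were derived as the size of the edgeR log2 fold change divided by the square root of its F value. The 95% intervals are t intervals built from these, so both are approximations. The 3 values per group cannot give an exact two-sided permutation p under 0.1. Between control and ICF samples of the same number, deviations from the group means correlated across genes at r = 0.15, 0.197 and 0.376, and the labels call the number a donor, so the number was used as a block in a second fit. Differently numbered samples gave -0.343 to 0.263. The highest of these, between control replicate 1 and ICF replicate 2, exceeded the values of the same-numbered samples 1 and 2.

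The named genes are the members past the threshold, the highest and lowest fold change in each group and the highest and lowest level in each complex, the isoform groups, complex II, the core and catalytic subunits, the genes left out by name and the called genes of each list, and others are said to be named after their values were seen. The values of 1 member are not reported here. Members and lists were chosen with earlier results of these data known. Promoter windows came from RefSeq (GRCm38.p6), which held windows for 77 of the 89 members. Shared 75-base stretches were counted on either strand, and 17 of the 92 members had over 10% of their stretches shared. Alternatives were DESeq2 1.42.0, RLE factors, other filters, the block, GC and length offsets, ICF replicate 3 divided by 4, replicate 3 as a batch or left out, and each library left out.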

Additional observations from a re-analysis of the deposited data

How the results depend on the processing

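With DESeq2, 943 genes were higher and 1109 lower in all, and 3 members were lower. With the looser filter 3 members were lower. With the replicate block 2445 genes were higher and 2561 lower, and 8 members were higher and 15 lower. DESeq2 with the block gave 1457 and 1662 genes, and 7 and 8 members. GC and length offsets gave 1276 higher genes and 11 higher members, and with the block 2913 and 2264 genes and 22 and 5 members. Replicate 3 as a batch gave 2823 and 2876 genes and 8 and 17 members, and leaving it out of both groups gave 2466 and 2627 genes and 16 lower members. With 1 library left out, 85 to 724 genes and 0 to 4 members were higher and 215 to 928 genes and 0 to 3 members lower. Without control replicate 2, no member was called.

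The offsets, without and with the block, moved the median log2 fold change of the members to 0.057 and 0.057, of the complex I core to 0.006 and 0.005, of its accessory subunits to 0.094 and 0.093, of its assembly factors to 0.14 and 0.141, of complex III to 0.039 and 0.04 and of complex IV to -0.002 and -0.002. The complex III assembly factors had 0.155 without replicate 3 of both groups. The offsets also turned the sign of Uqcc2 (0.057 and 0.057), Ndufc2 (0.073 and 0.075), Ndufb2 (-0.014 and -0.015), Cox6a1 (0.077 and 0.076), Cox7a2 (0.127 and 0.126), Cox7b (0.003 and 0.006), Atp5g3 (0.075 and 0.076), Ndufs1 (-0.012 and -0.012), Ndufs3 (0.011 and 0.01), Ndufv1 (0.006 and 0.005), Atp5c1 (0.041 and 0.042), Ndufa4 (0.029 and 0.033) and Cox4i1 (0.018 and 0.02). Leaving out 1 library gave both signs for Ndufb2 (-0.025 to 0.082), Uqcr10 (-0.026 to 0.112), Cox7a2 (-0.069 to 0.008), Atp5g3 (-0.048 to 0.049), Sdhb (-0.207 to 0.054), Ndufs1 (-0.001 to 0.057) and Ndufa4 (-0.065 to 0.019). The cause of these changes was not tested. Of 50 single genes, 35 kept their direction in every one of the 17 alternatives that gave a value. DESeq2 gave no adjusted p for Cox7b2 and Cox4i2. The counts of ICF replicate 3 resolve low levels less finely.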
